A study of Mus musculus with 13 samples.

Results

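Cholesterol synthesis was described through 8 of its enzymes, Hmgcs1, Mvd, Fdps, Fdft1, Sqle, Lss, Cyp51 and Dhcr7, which were chosen by name, out of 33618 gene identifiers with deposited counts. All 8 passed the filter on low counts. RNA was taken from whole parametrial WAT (pmWAT), the fat pad around the uterus of female mice, and sequenced in bulk. The 7 controls were Lmna fl/fl mice, in which loxP sites flank a pair of exons of Lmna, the gene of lamin A/C, a protein of the nuclear envelope. The 6 Lmna iADKO mice carried the same floxed alleles together with Adipoq-CreERT2+/–, a tamoxifen-dependent Cre recombinase driven by the adiponectin promoter, which is active in adipocytes. Both genotypes were given tamoxifen at 50 mg/kg on 5 consecutive days from 12 to 14 weeks of age, and tissue was taken 2 weeks posttamoxifen. The controls therefore had the drug but not the Cre. The Cre is meant to act in adipocytes, so the other cells of the fat pad should keep their Lmna. Libraries held between 18854223 and 19776491 counts.

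Lmna, the targeted gene, did not separate the labels in the direction of a knockout. Its level was 84.7 ± 7.51 CPM (counts scaled to library size; SD, n = 7) in fl/fl and 96.7 ± 11.5 (SD, n = 6) in iADKO, with a log2 fold change of 0.19 and an adjusted p of 0.0785 by edgeR's quasi-likelihood test. Counts of the whole gene include exons outside the floxed part and reads from cells without the Cre, so they are a weak check. The directions below therefore rest on the labels. All 7 adipocyte markers (Adipoq, Plin1, Plin4, Cidec, Fabp4, Acvr1c and Trarg1) were lower in iADKO, with a median log2 fold change of -0.81. In bulk tissue, fewer adipocytes and less of an RNA per adipocyte cannot be told apart.

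Cells build cholesterol from acetyl-CoA by the mevalonate pathway, which leads to farnesyl diphosphate, and by the sterol branch, which starts when 2 farnesyl units are joined into squalene. Farnesyl diphosphate also feeds protein prenylation, including the farnesylation of prelamin A, the precursor of lamin A made from Lmna. When sterols in the endoplasmic reticulum run low, SCAP escorts the transcription factor SREBP2 to the Golgi, where it is cut free to activate genes of the pathway. INSIG proteins hold SCAP back when sterols are plentiful. White fat stores much free cholesterol in its lipid droplets and makes comparatively little.

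Promoter sequences from RefSeq, spanning 250 bases before to 50 bases after an annotated start, were at hand for 5 of the 8 enzymes. The windows of 4 are shown because they belong to the enzyme whose fold change was nearest to 0 (Hmgcs1), the enzymes called lower that have an entry (Lss and Cyp51) and the enzyme next to the threshold (Mvd). Capitals mark TCACNCCAC, a form of the sterol regulatory element to which SREBPs bind, and CCAAT, the core bound by the partner factor NF-Y. Both are marked on either strand.
Hmgcs1, chr13:120151637-120151936, plus strand: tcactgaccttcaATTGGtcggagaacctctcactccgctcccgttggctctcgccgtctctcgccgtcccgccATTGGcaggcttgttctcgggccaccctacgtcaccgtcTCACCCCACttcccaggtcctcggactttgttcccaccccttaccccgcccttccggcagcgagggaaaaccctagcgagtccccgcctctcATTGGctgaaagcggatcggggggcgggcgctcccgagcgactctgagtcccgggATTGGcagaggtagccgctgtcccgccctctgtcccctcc
Mvd, chr8:123170112-123170411, minus strand: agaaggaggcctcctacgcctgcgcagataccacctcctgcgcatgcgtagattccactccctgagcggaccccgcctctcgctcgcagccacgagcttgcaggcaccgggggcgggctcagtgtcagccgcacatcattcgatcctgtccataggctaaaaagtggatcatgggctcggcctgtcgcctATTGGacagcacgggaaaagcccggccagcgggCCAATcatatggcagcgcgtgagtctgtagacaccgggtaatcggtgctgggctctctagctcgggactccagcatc
Lss, chr10:76367189-76367488, plus strand: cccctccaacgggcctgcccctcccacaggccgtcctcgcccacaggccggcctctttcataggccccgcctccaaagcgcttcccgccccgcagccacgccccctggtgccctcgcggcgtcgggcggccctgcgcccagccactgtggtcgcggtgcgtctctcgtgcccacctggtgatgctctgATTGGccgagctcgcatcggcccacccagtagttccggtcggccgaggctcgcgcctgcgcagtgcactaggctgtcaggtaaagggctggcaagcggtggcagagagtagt
Cyp51, chr5:4154648-4154947, minus strand: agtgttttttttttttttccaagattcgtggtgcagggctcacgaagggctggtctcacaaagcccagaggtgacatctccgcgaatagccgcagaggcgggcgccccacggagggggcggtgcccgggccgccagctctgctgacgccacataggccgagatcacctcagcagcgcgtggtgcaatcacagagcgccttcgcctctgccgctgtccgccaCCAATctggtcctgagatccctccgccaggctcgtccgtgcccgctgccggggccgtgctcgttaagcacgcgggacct
The RefSeq windows were on GRCm38.p6, and each was placed on GRCm39 by an exact and unique match. Hmgcs1 held the only TCACNCCAC among the 5 enzymes, 137 bases upstream of the start on the plus strand. That motif was in 1.24% of all 32851 promoter windows and in 0 of 11 other cholesterol synthesis genes. The shorter CACNCCAC, contained in it, was in 6.24% of windows, in the same 1 of 5 enzymes and in 1 of the 11 other genes. CCAAT was found for 5 of 5 enzymes and 10 of the 11 other genes, against 37.4% of all windows. GGGCGG, the core of the Sp1 site, had the same counts of genes, against 35.7% of windows. These are matches of letters, and some genes have more than 1 window. An element with other letters, or outside the window, would not be seen, so a missing match does not show that the element is absent.

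**Figure D1:**
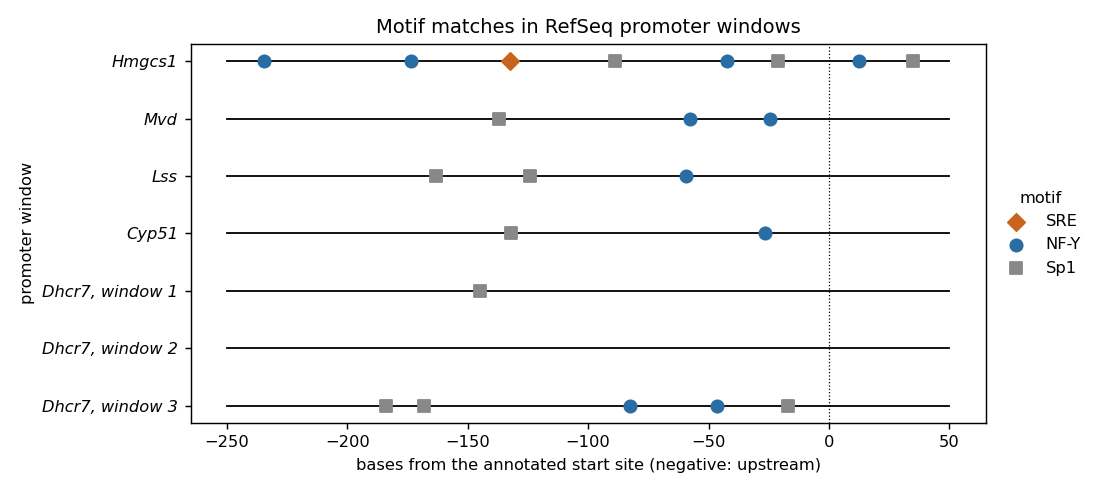
Positions of the motifs TCACNCCAC (SRE), CCAAT (NF-Y) and GGGCGG (Sp1) in the promoter windows of the 5 enzymes with an entry, against the distance from the annotated start in bases. Hmgcs1 alone has a match to TCACNCCAC, Dhcr7 has 3 windows, and each enzyme has at least 1 NF-Y and 1 Sp1 match in a window.

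Among the 8 enzymes, 3 fell in iADKO (Fdft1, Lss and Cyp51) and 0 rose at an adjusted p below 0.05. Of all 16753 genes tested, 16.3% were called lower and 14.1% higher. The median log2 fold change of the 8 was -0.53, and it was -0.71 without Fdps, whose counts were very low, while the median over all genes tested was 0.03. Without fl/fl 2 the median of the 8 was -0.32. In none of the 8 were all iADKO libraries below all fl/fl libraries, a separation that 3.93% of genes tested showed. For Mvd, Lss and Cyp51 a single control, fl/fl 5, made the overlap, and for Fdft1 a single iADKO library, iADKO 6. With both left out, an alternative chosen after the values were seen, 5 of 8 were called lower, as also with fl/fl 5 alone left out. More of all genes tested were then called lower as well, 3910 of 16769 and 3285 of 16638, against 2737 of 16753 with every library. With the range of the library numbers, described further on, as a term in the fit, 2 of 8 were called lower, where 7.17% of genes tested were called lower and 4.68% higher.

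**Figure D2:**
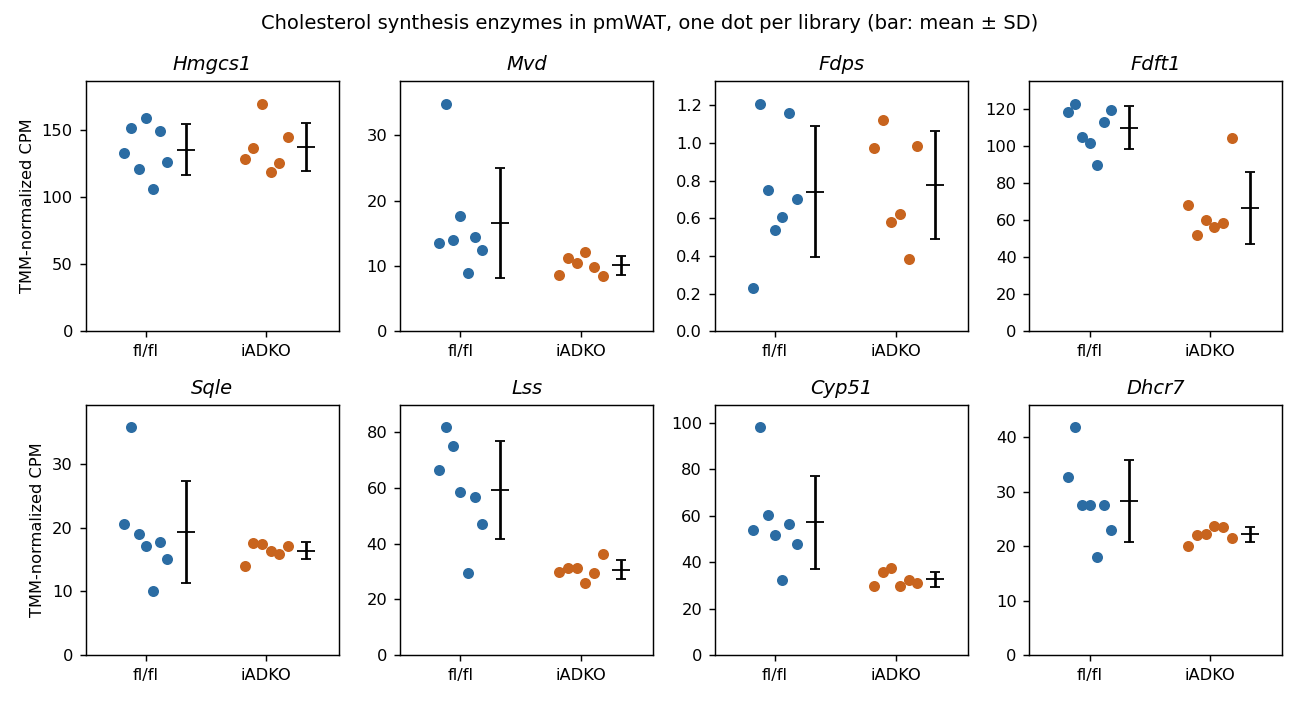
TMM-normalized CPM of the 8 enzymes (vertical axes, each from 0) by label, with 1 dot per library and bars for the mean and SD of 7 fl/fl and 6 iADKO libraries. Lss and Cyp51 of 6 fl/fl libraries lie above all iADKO libraries, and Hmgcs1 lies at the same height in both labels. The library fl/fl 2 stands highest for every enzyme but Hmgcs1.

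In the mevalonate arm, Hmgcs1 (GRCm39 chr13:120151915-120170470, plus strand, 10 exons in the canonical transcript) encodes the cytosolic synthase that makes HMG-CoA. The lowest, median and highest levels were 106, 133 and 159 CPM among the controls, and 119, 132 and 169 CPM among the iADKO libraries. The ranges overlapped almost fully. Its log2 fold change was 0.02 ± 0.10 (SE), with an adjusted p of 0.885 by edgeR. Of its canonical transcript, 9.67% has a copy of 99.5% identity on chromosome 12.

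Mvd (chr8:123160336-123170324, minus strand, 10 exons) encodes the decarboxylase that turns mevalonate diphosphate into isopentenyl diphosphate. Its level was 8.96, 14.0 and 34.9 CPM (lowest, median and highest) in fl/fl and 8.40, 10.1 and 12.2 in iADKO. The highest value belonged to fl/fl 2 and the lowest of the controls to fl/fl 5, and the other 6 controls, at 12.4 CPM or more, were above all iADKO libraries. The log2 fold change was -0.71 ± 0.26 (SE), and the adjusted p of 0.0504 by edgeR just missed the threshold. Without fl/fl 2 the log2 fold change was -0.42 and the adjusted p 0.0462.

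Fdps (chr3:89000888-89019213, minus strand, 10 exons) encodes farnesyl diphosphate synthase, at the fork between sterols and prenyl groups. Only 192 counts were assigned to it in all 13 libraries, 4 to 24 per library. Near-identical copies at 95% identity or more cover 91.3% of its canonical transcript, among them Gm3571 at chr10:93614473-93615635, Gm8163 on chromosome X and Gm5873 on chromosome 6. How reads that match several copies were counted is not given in the sources used here, so its level is uncertain. Its level was 0.230, 0.700 and 1.21 CPM (lowest, median and highest) in fl/fl and 0.382, 0.798 and 1.12 in iADKO, and the log2 fold change was 0.06 ± 0.33 (SE; adjusted p = 0.898 by edgeR).

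On the sterol branch, Fdft1 (chr14:63382189-63417027, minus strand, 8 exons) encodes squalene synthase, the first enzyme committed to sterols. In fl/fl its level was 89.8, 113 and 123 CPM (lowest, median and highest). In iADKO the values were 51.8, 59.3 and 105, and the highest, from iADKO 6, was the only one above 68.0. That library alone overlapped the controls. Fdft1 fell by 0.73 on the log2 scale (SE 0.14, adjusted p = 0.00284 by edgeR), which is 39.5% lower. With the library number range as a term the log2 fold change was -0.63 and the call was lost (adjusted p = 0.0560). A copy of 97.0% identity, Gm6781 on chromosome 14, covers 48.0% of the canonical transcript and had 75 counts in all libraries, against 22335 for Fdft1. Fdft1 also shares 1184 bases of exon with Ctsb on the opposite strand, which is 24.8% of its exon length, and the strand setting of the counting is not given. Ctsb was much more abundant, with 793301 counts, and its log2 fold change of 0.20 (adjusted p = 0.131) had the opposite sign. What Ctsb reads add to the count of Fdft1 was not tested.

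Sqle (chr15:59186869-59203043, plus strand, 11 exons) encodes squalene epoxidase, which adds the oxygen before ring closure. Its level was 10.1, 17.7 and 35.7 CPM (lowest, median and highest) in fl/fl and 14.0, 16.7 and 17.5 in iADKO. The iADKO libraries sat inside the range of the controls. Its log2 fold change was -0.24 ± 0.21 (SE; adjusted p = 0.414 by edgeR), and it was -0.02 without fl/fl 2. Sqle shares 470 bases of exon, 5.29% of its exon length, with Washc5 on the opposite strand. Washc5 had 18670 counts in all libraries, against 4501 for Sqle, and a log2 fold change of -0.02 (adjusted p = 0.848 by edgeR). What Washc5 reads add to the count of Sqle was not tested.

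Lss (chr10:76367298-76392976, plus strand, 22 exons) encodes lanosterol synthase, which closes the sterol rings. Its level was 29.6, 58.5 and 81.7 CPM (lowest, median and highest) in fl/fl and 25.7, 30.5 and 36.3 in iADKO. Apart from fl/fl 5, the lowest control was 46.9 CPM, above all 6 iADKO libraries. Lss fell by 0.95 on the log2 scale (SE 0.19, adjusted p = 0.00286 by edgeR), or 48.3%, the furthest of the 8.

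Cyp51 (chr5:4123416-4154751, minus strand, 10 exons) encodes the lanosterol demethylase. Its level was 32.1, 53.9 and 98.0 CPM (lowest, median and highest) in fl/fl and 29.7, 31.6 and 37.3 in iADKO. Again fl/fl 5 was the only control within the iADKO range, and the next was 47.6 CPM. Cyp51 fell by 0.81 on the log2 scale (SE 0.19, adjusted p = 0.00771 by edgeR), or 42.8%. It shares 1253 bases of exon, 21.1% of its exon length, with Akap9 on the opposite strand, which fell by 0.22 on the log2 scale (adjusted p = 0.0118). What Akap9 reads add to its count was not tested.

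Dhcr7 (chr7:143376740-143402149, plus strand, 8 exons) encodes the reductase of the last step to cholesterol in one of the pathway's routes. Its level was 17.9, 27.5 and 41.8 CPM (lowest, median and highest) in fl/fl and 20.1, 22.2 and 23.8 in iADKO. All controls but fl/fl 5 and fl/fl 7 were above all iADKO libraries. Its log2 fold change was -0.35 ± 0.15 (SE), with an adjusted p of 0.0861 by edgeR. Without fl/fl 5 it was -0.43 with an adjusted p of 0.0100, and without fl/fl 2 it was -0.23.

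The library names carry numbers that fall into 4 ranges, and 2 of these held both labels. In the range from 722 to 727, with 2 libraries of each label including fl/fl 5 and iADKO 6, log2 fold changes were -0.44 for Lss, -0.42 for Cyp51, -0.32 for Fdft1, -0.31 for Mvd, 0.02 for Hmgcs1 and Dhcr7, 0.34 for Sqle and 0.40 for Fdps. In the range from 747 to 765, with 3 fl/fl and 2 iADKO, they were -1.28 for Lss, -1.07 for Cyp51, -0.95 for Fdft1, -0.93 for Mvd, -0.67 for Dhcr7, -0.62 for Sqle, -0.03 for Hmgcs1 and 0.67 for Fdps. Lss, Cyp51, Fdft1 and Mvd were thus below 0 in both ranges and Fdps above 0 in both. Sqle, Dhcr7 and Hmgcs1 changed sign, and Hmgcs1 was near 0 in both. With the range as a term in the fit, Lss (adjusted p = 0.0280) and Cyp51 (0.0375) were called and Fdft1 was not. What the numbers stand for is not stated, and the other 2 ranges held 1 label each. The fit with the range as a term therefore compares the labels only within the 2 ranges that held both. The median log2 fold change of the 8 was -0.50 in that fit, against -0.53 without the term. Whether calls were lost through the range or through fewer libraries compared was not tested.

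**Figure D3:**
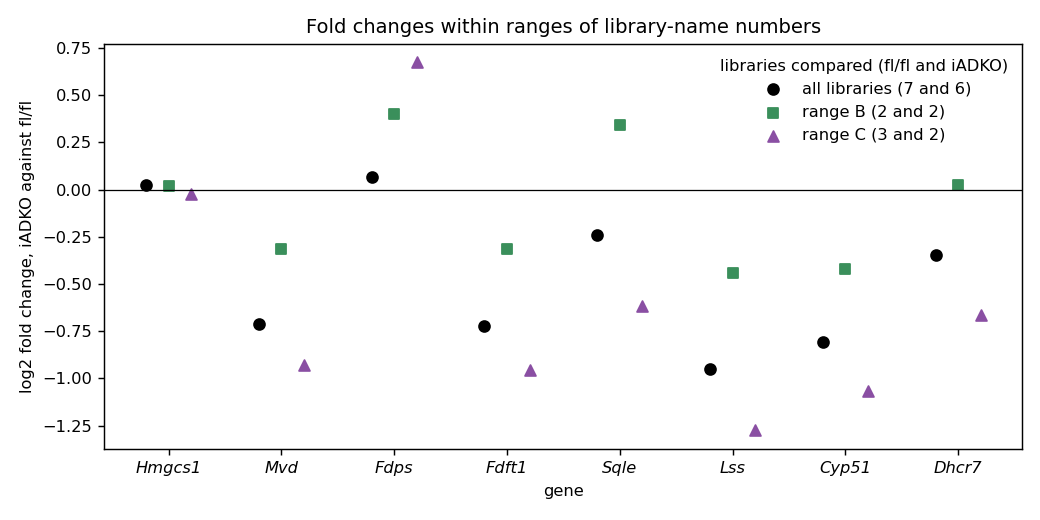
Log2 fold changes (vertical axis, iADKO against fl/fl) of the 8 enzymes in all 13 libraries, in range B (library numbers 722 to 727) and in range C (747 to 765), shown without error bars. Lss, Cyp51, Fdft1 and Mvd are below 0 in each, Fdps is above 0 in each, and Sqle and Dhcr7 are above 0 in range B only. Hmgcs1 is near 0 in each.

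Per kb of exon length, which allows genes to be compared, Hmgcs1 had the highest level in fl/fl, 25.6 ± 3.61 CPM per kb (SD, n = 7), followed by Fdft1 at 23.0 ± 2.46. The gap between these 2 was smaller than the sum of their SDs. Cyp51 followed at 9.63 ± 3.40, Mvd at 6.07 ± 3.10, Lss at 5.21 ± 1.54, Dhcr7 at 3.45 ± 0.921 and Sqle at 2.17 ± 0.898 CPM per kb. Neighbours among these 5 differed by less than the sum of their SDs. Fdps was last at 0.152 ± 0.0706, but near-identical copies cover 91.3% of its canonical transcript, so its place is uncertain. In iADKO (SD, n = 6), Hmgcs1 stood at 26.01 ± 3.45 and Fdft1 at 13.9 ± 4.06 CPM per kb, further apart than the sum of their SDs. The level of Lss, 2.697 ± 0.303, was there next to that of Dhcr7, 2.71 ± 0.166. The order between the third and the seventh place changed when the canonical transcript was used as the length, while Hmgcs1, Fdft1 and Fdps kept their places in both labels.

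The enzymes also varied from library to library within a label. After the mean of each label was subtracted, the median pairwise Pearson r in log2 CPM over 13 libraries was 0.51 for all 8 enzymes (28 pairs) and 0.61 without the thinly counted Fdps (21 pairs, from 0.03 to 0.97). The closest pair was Sqle and Cyp51. Fdft1 had a median r of 0.27 with the other 6 and Fdps one of 0.21 with the other 7. The 6 enzymes left when both are set aside, a choice made after these values were seen, had a median r of 0.85. The libraries furthest from their label were fl/fl 2 and fl/fl 5. In fl/fl 2, 7 of the 7 enzymes other than Fdps were above the mean of their label, by a median of 0.61 on the log2 scale, and in fl/fl 5 all were below it, with a median of -0.76. Without fl/fl 2 the median r of the 7 enzymes was 0.57, with the lowest pair at -0.25. The libraries share depth scaling and tissue make-up, and no p is given.

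**Figure D4:**
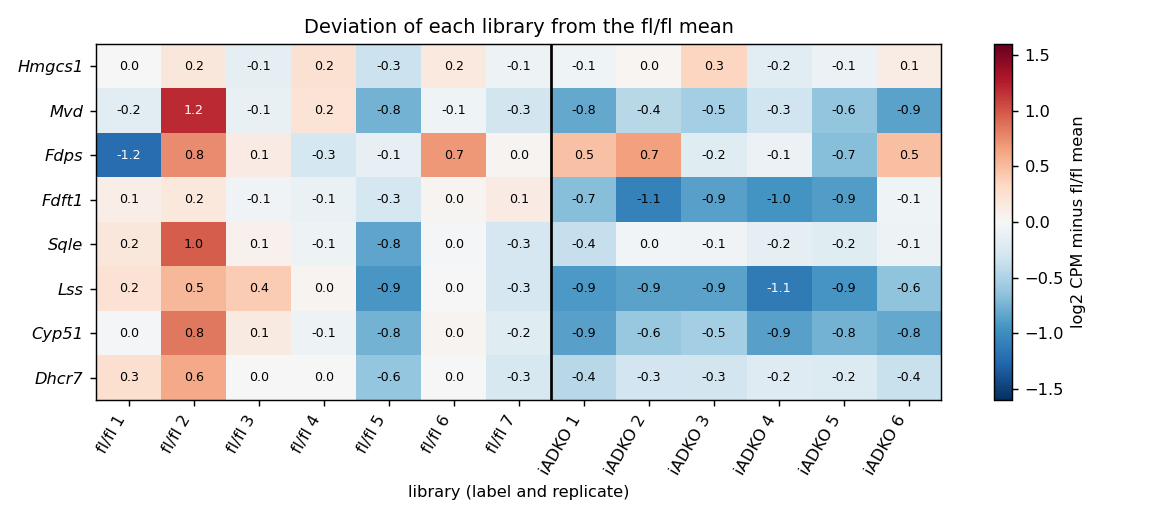
Log2 CPM of each enzyme (rows) in each of the 13 libraries (columns) minus the mean of the fl/fl libraries, with red above and blue below that mean. The column fl/fl 2 is red and fl/fl 5 blue for most enzymes, and Hmgcs1 stays near 0 in both labels.

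Outside the list, genes among the 5 most like the mean of the 8 enzymes within labels, of 13847 ranked, were Sc5d (r = 0.93), Idi1 (0.92), Pnpla3 (0.92) and Trub2 (0.91). Sc5d and Idi1 are themselves cholesterol synthesis genes, and Pnpla3 encodes a lipid droplet protein. Without fl/fl 2 their ranks were 23 for Sc5d, 4 for Idi1, 55 for Pnpla3 and 155 for Trub2. Npc1, which carries cholesterol out of lysosomes, varied the opposite way (r = -0.77, and -0.94 without fl/fl 2). It was not alone among the cholesterol handling genes described further on. Without fl/fl 2, r was -0.85 for Lipa and Nceh1 and -0.84 for Soat1 and Abcg1, but 0.43 for Stard4 and 0.23 for Osbp.

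Of 11 other genes of cholesterol synthesis, 8 fell in iADKO and 1 rose, against 16.3% lower and 14.1% higher of all genes tested. Their median log2 fold change was -0.77. The difference from the 8 enzymes was not tested. In the mevalonate arm, Acat2, which makes acetoacetyl-CoA, fell by 0.94 on the log2 scale, the kinase Mvk fell by 0.52, the kinase Pmvk fell by 1.11 and the isomerase Idi1 fell by 0.77. Hmgcs1, with its log2 fold change of 0.02, stands in the pathway between Acat2 and these kinases. Among the sterol enzymes, Nsdhl fell by 1.29, Tm7sf2 fell by 1.09, Sc5d fell by 0.96 and Msmo1 fell by 0.43. Hsd17b7 (-0.21) and Ebp (-0.21) did not pass the test. The 2 sterol C14 reductases moved in opposite directions: Tm7sf2 was 21.5 ± 4.91 CPM (SD, n = 7) in fl/fl and 10.1 ± 2.02 (SD, n = 6) in iADKO, while Lbr, which also encodes the lamin B receptor of the nuclear envelope, was 43.0 ± 2.80 and 49.9 ± 2.57 with a log2 fold change of 0.22 that passed the test (adjusted p = 0.00781 by edgeR). With the number range as a term, 5 of the 11 were called lower and 0 higher, against 7.17% and 4.68% of all genes. Lbr then had an adjusted p of 0.0820 by edgeR.

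**Figure D5:**
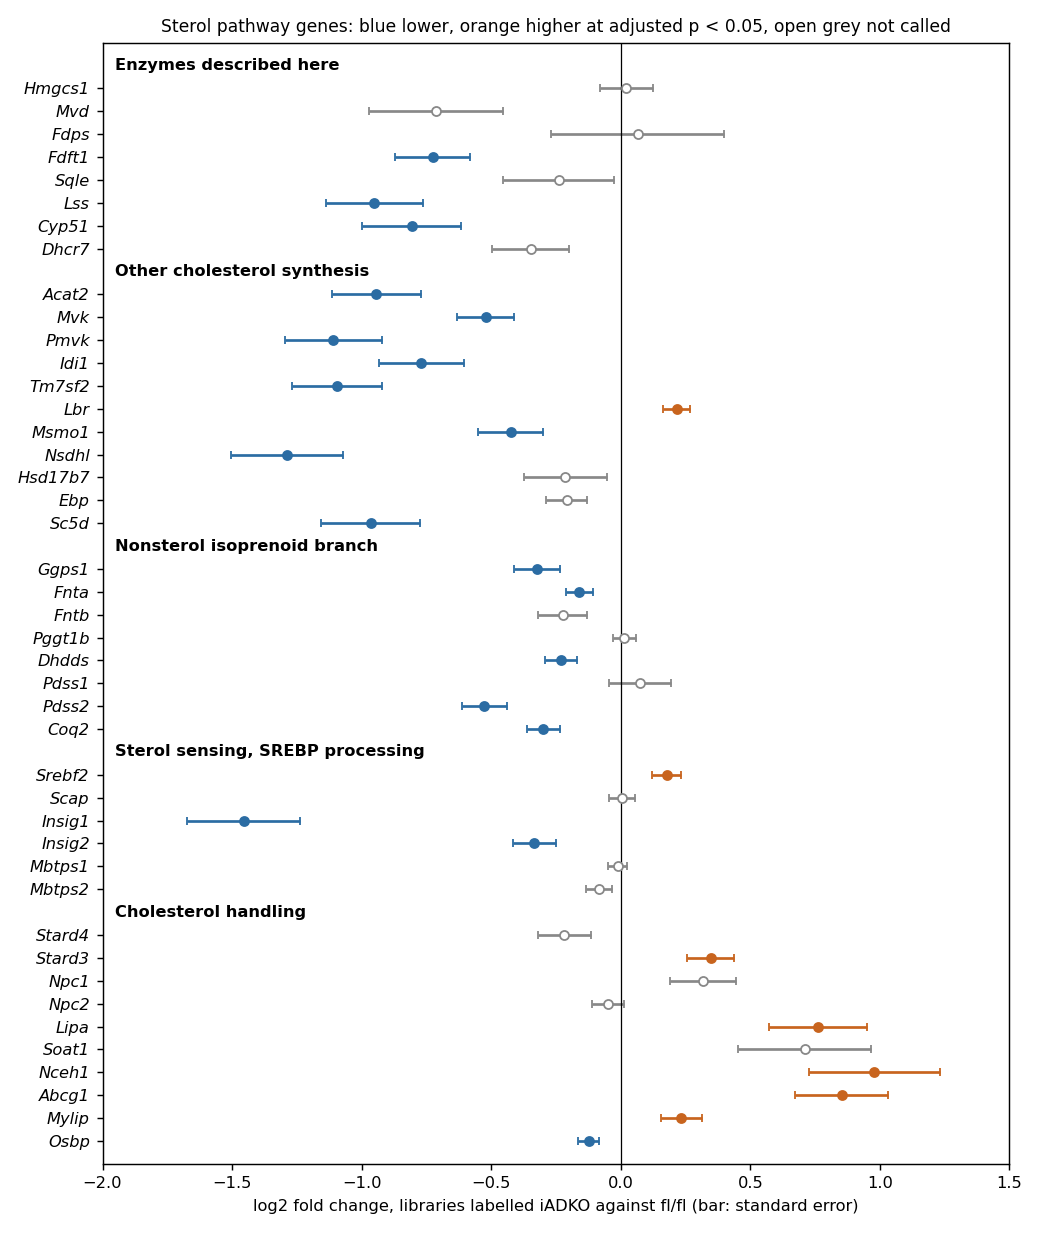
Log2 fold change with its standard error (horizontal axis, iADKO against fl/fl) for the 8 enzymes and 4 further lists, in pathway order. Blue points are called lower and orange higher at an adjusted p below 0.05 by edgeR, and open grey points are not called. Insig1 and Nsdhl lie furthest to the left, and the genes of cholesterol handling lie mostly to the right.

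Of 8 genes of the nonsterol isoprenoid branch, which uses farnesyl diphosphate and its precursors for other ends, 5 fell and 0 rose. The shares of all genes tested were 16.3% lower and 14.1% higher, and the median log2 fold change of these 8 was -0.23. Pdss2, a subunit of the synthase of the coenzyme Q tail, fell by 0.53, Ggps1, the synthase of the longer prenyl group, fell by 0.32, the coenzyme Q enzyme Coq2 fell by 0.30, the dolichol enzyme Dhdds fell by 0.23 and Fnta, a subunit shared by the enzymes that attach prenyl groups to proteins, fell by 0.16. Fntb, the other subunit of the farnesyltransferase, had a value of -0.22 (adjusted p = 0.0891), and Pggt1b and Pdss1 had values of 0.01 and 0.07. With the number range as a term, 2 of the 8 were called lower, against 7.17% of all genes in that fit.

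Of the 6 genes of sterol sensing and SREBP processing, Insig1 moved most. Among the controls it was 183.2 CPM at the lowest, 438 at the median and 579 at the highest, and the iADKO libraries lay between 117 and 182.5 CPM, so that every iADKO library was below every fl/fl library. Insig1 fell by 1.45 on the log2 scale (SE 0.22, adjusted p = 0.000643 by edgeR), and Insig2 fell by 0.33. Srebf2, the gene of SREBP2, was 73.2 ± 3.93 CPM (SD, n = 7) in fl/fl and 82.8 ± 6.56 (SD, n = 6) in iADKO with a log2 fold change of 0.18 that passed the test (adjusted p = 0.0279 by edgeR), a call lost with the number range as a term (adjusted p = 0.105) and with fl/fl 5 and iADKO 6 left out together. Scap, Mbtps1 and Mbtps2, whose products escort and cut SREBPs, had values between -0.08 and 0.01 and did not pass the test.

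Of 10 genes of cholesterol handling inside the cell, 5 rose and 1 fell, against 14.1% higher and 16.3% lower of all genes tested. The median log2 fold change of the 10 was 0.33. Nceh1 and Lipa, which free cholesterol from its esters, rose by 0.98 and 0.76 on the log2 scale, the exporter Abcg1 by 0.85, the lysosomal carrier Stard3 by 0.35 and Mylip, an E3 ligase for lipoprotein receptors, by 0.23. Osbp fell by 0.12. Soat1, which makes cholesterol esters, had a value of 0.71 (adjusted p = 0.0520), Npc1 0.32 (adjusted p = 0.0739), Npc2 -0.05 and Stard4 -0.22. With the number range as a term, 0 of the 10 were called in either direction, against the 7.17% lower and 4.68% higher of all genes in that fit. The median log2 fold change of the 10 was then 0.31.

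Cell type markers moved with these lists, and their part in the results was not tested. Of all genes tested, 14.1% were called higher and 16.3% lower. Macrophage markers were called higher for 6 of 9, and none was at 0. The controls had summed levels from 1954 to 5195 CPM and the iADKO libraries from 3019 to 5195 CPM. The libraries that alone made the overlap for Mvd, Lss and Cyp51 (fl/fl 5) and for Fdft1 (iADKO 6) also stood apart here. In fl/fl 5 the macrophage sum was 5195 CPM, the highest of the controls, and the adipocyte sum was 9905, the lowest of the controls. In iADKO 6 the macrophage sum was 3019 CPM, the lowest of its label, and the adipocyte sum was 11108, the highest of its label. The library with the highest sum of the 8 enzymes, fl/fl 2 at 567 CPM, had an adipocyte sum of 12697 CPM, the second lowest of the controls. Across all libraries the adipocyte sum ran from 9905 to 18120 CPM in controls and from 6499 to 11108 CPM with iADKO labels. Lymphocyte markers were called higher for 4 of 6, endothelial markers lower for 1 of 4, and those of progenitors (5), mesothelium (4) and skeletal muscle (4) were called for none. Muscle markers reached a summed 311.5 CPM in fl/fl 5, and 1 of them, Myh4, was at 0 in at least 1 library of each label.

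The fatty acid synthesis enzymes, which in fat are driven by SREBP1c and ChREBP, had larger fold changes. All 7 (Acly, Acss2, Acaca, Fasn, Elovl6, Scd1 and Me1) fell, against 16.3% of all genes tested. Their median log2 fold change was -1.99, with a range of -2.60 to -1.64. With the number range as a term 6 of the 7 were called lower, as were 7.17% of all genes. Acly was not called (-1.48, adjusted p = 0.0563 by edgeR). The furthest of the 8 cholesterol enzymes, Lss at -0.95, was short of the least changed of these, Acly at -1.64 ± 0.35 (SE), and of the other synthesis genes Nsdhl was nearest at -1.29. The difference between the lists was not tested. As with cholesterol synthesis, fl/fl 5 had the lowest sum of the controls (32890 CPM) and iADKO 6 the highest of its label (26868 CPM).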

How the data were processed

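Bulk RNA-Seq of pmWAT was analyzed for 7 fl/fl and 6 iADKO libraries, grouped by their labels. The authors deposited raw counts per gene for 33618 identifiers, of which 33184 were in GENCODE vM39, and log2 values made from them by the regularized log of DESeq2. Per the study's methods, strand-specific paired reads were aligned to mm39 with STAR 2.7.11a; the counting tool, its handling of reads with several matches and its strand setting are not given in the sources used here. In R 4.3.3, counts were filtered with filterByExpr of edgeR 4.0.16 (16753 genes left), scaled by TMM and tested with the robust quasi-likelihood test, with Benjamini-Hochberg adjustment and a threshold of 0.05. CPM are TMM-normalized, and log2 CPM had a prior count of 2. The labels number the samples of each genotype but name no animals, and each library was taken to be from a different animal. An SD is the spread between libraries, counting error included. The SE of a log2 fold change is its absolute value divided by the square root of the test's F statistic.

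The 8 enzymes and the further lists were chosen with earlier results of these data known, and some genes are not reported here and were left out of the lists. The genes named were all 8 enzymes, any gene of the fixed lists, Lmna and, where reported, the 5 genes most like the 8 within labels at an average log2 CPM of at least 1. Copies of the enzymes' transcripts were found with BLAST+ 2.17.0 on GRCm39 at 95% identity over 100 bases or more. Alternatives were DESeq2 1.42.0 (its test and its size factors), limma 3.58.1 on the deposited log2 values, other filters on low counts, a replicate block, the library number range as a block, comparisons within ranges, and leaving out libraries. The fit was tested on simulated data.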

Additional observations from a re-analysis of the deposited data

Results flagged for a closer look

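A test for single libraries far from the others of their label was run on the CPM of the 8 enzymes in both labels, 16 groups in all, and chance alone would flag about 1 in 20 groups. Dixon's test at the 95% level picked out fl/fl 2 as the highest control for Mvd (34.9 CPM), Sqle (35.7 CPM) and Cyp51 (98.0 CPM). These 3 flags share 1 library. Without fl/fl 2 the log2 fold change of Mvd moved from -0.71 to -0.42, that of Sqle from -0.24 to -0.02 and that of Cyp51 from -0.81 to -0.62. The same test picked out iADKO 6 as the highest iADKO library for Fdft1 (105 CPM), and without it the log2 fold change of Fdft1 was -0.90. The library fl/fl 5, the lowest control for each of the 7 enzymes other than Fdps, was not picked out for any of them.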

How the results depend on the processing

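With the library number range as a block, 1202 genes were called lower and 784 higher, against 2737 and 2367, and Hmgcs1 had a log2 fold change of -0.019 in place of 0.022. Leaving out single libraries gave 3 to 5 of the enzymes called lower, with 5 without fl/fl 5, a median log2 fold change between -0.60 and -0.32 (the last without fl/fl 2), and values of -0.047 to 0.065 for Hmgcs1 and -0.088 to 0.22 for Fdps, both of which changed sign. With fl/fl 5 and iADKO 6 left out together, chosen after seeing the data, 5 enzymes were called lower, Hmgcs1 was at -0.069 and Fdps at -0.080. Of all genes tested, 3910 were called lower in that fit and 3285 without fl/fl 5, against 2737 with every library. Within the range from 722 to 727 the median of the enzymes was -0.15. Mvd, at the threshold in the reported fit, passed under 8 settings, with adjusted p-values between 0.0158 and 0.146 over all of them. Lss and Cyp51 were lower under every setting that gave a test. Fdps was removed by a filter of at least 10 counts in every library. Libraries that share a replicate number had residual correlations from -0.03 to 0.22 (mean 0.107). Other pairs of libraries from the 2 labels had values from -0.42 to 0.28 (mean -0.020). These values do not settle whether the numbers are pairs, and the reported fit did not take them as pairs. With the replicate block, in which fl/fl 7 has no partner and was left out, 4 enzymes and 2454 of 16667 genes tested were called lower. The median of the enzymes was then -0.51, and Mvd had an adjusted p of 0.0381 by edgeR. Fdps had the fewest counts of the enzymes, 4 to 24 per library, and its near-identical copies make its level uncertain.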
